A study of Mus musculus with 16 samples.

Results

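RBM20 and 9 other RNA-binding proteins that set splicing in striated muscle were followed through left ventricles of mice with a homozygous RBM20 P635L substitution, with and without extra TNPO3. The 10 genes are Rbm20, Rbm24, Mbnl1, Mbnl2, Celf1, Celf2, Rbfox1, Rbfox2, Ptbp1 and Qk. They were chosen by symbol, and their counts were read from a table of 56953 genes. Their own splicing events, meaning alternative exons, splice sites and retained introns in their own transcripts, were taken by gene from 3 rMATS tables. These held 84 such events of 44612 for the mutant with control virus, 78 of 44418 for the mutant with Tnpo3 virus, and 74 of 41025 for wild type with Tnpo3 virus, each against WT Ctr. Joining the first 2 tables gave 71 of 35475 events for the 2 mutant groups against each other. Qk stands in the splicing tables as Qki under the same gene identifier.

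The study crossed genotype with virus in 4 groups of 4 mice (16 libraries of poly(A)-selected RNA, directional kit). WT Ctr and WT Tnpo3 were wild-type Bl6J mice, and P635L Ctr and P635L Tnpo3 were homozygous for RBM20 P635L on the same background. Every mouse received AAV9 (an adeno-associated virus that infects heart muscle well) by tail vein at 4 weeks of age, at 1e12 vector genomes, and the heart was taken 12 weeks later at 16 weeks. The Tnpo3 groups received Tnpo3 cDNA and the Ctr groups a virus encoding iCre and eGFP, so the control mice also carried a transgene. Both sexes were used, and the sex of single mice is not given.

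Summed over genes, the libraries held 28493249 to 85922669 counts. Tnpo3 itself stood at 41.6 to 49.4 CPM (gene counts scaled to library size, with TMM factors) in the 8 Ctr-virus libraries and at 231 to 723 CPM in the 8 Tnpo3-virus libraries, as their labels state. In WT Ctr replicates 2 and 4 and WT Tnpo3 replicate 4, 1 gene (ENSMUSG00000119584) took 19.96% to 22.65% of all counts. In the other 13 libraries the same gene took 0.70% to 5.3%. Gene-level calls that rest on those 3 libraries are given with and without them. The splicing tables do not say which value belongs to which mouse, so inclusion levels could not be recomputed without them. Xist stood above the Y-linked genes in WT Ctr replicate 4 and WT Tnpo3 replicates 2 and 4, and in none of the mutant libraries.

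RBM20 binds introns through an RNA recognition motif and keeps the flanking exons out of titin and of calcium-handling transcripts. An arginine- and serine-rich stretch carries it into the nucleus, and TNPO3 is the import receptor that recognises such stretches. Missense changes in the stretch cause dilated cardiomyopathy, and the changed protein accumulates in the cytoplasm. The other 9 act beside it in muscle. RBM24 favours inclusion of muscle exons. MBNL and CELF proteins pull many exons in opposite directions during heart maturation. RBFOX proteins bind GCAUG-type elements, PTBP1 represses muscle and neuronal exons, and QKI binds ACUAA-type elements.

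The codon of the allele and the alternative segments on which the splicing values below turn are shown first. They come from GENCODE M21 transcripts (build GRCm38), because no genome of the build of the files, GRCm39, was used here. An alternative exon was matched to M21 by its length and those of both neighbouring introns. An extension at an acceptor was matched by the length of the longer exon and of the upstream intron only. The Rbm20 stretch is from transcript Rbm20-203, 57 bases with the codon that P635L changes in capitals. That codon lies in exon 9 of 14 (622 bases), at chr19:53843239-53843241 on the plus strand, and it is the reference codon.
Rbm20, codon of P635L: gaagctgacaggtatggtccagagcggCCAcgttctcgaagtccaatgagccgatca
The exon with that codon was the alternative part of no listed Rbm20 event.

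In Celf1, Celf2 and Rbfox2 the alternative bases are an extension of an exon at its acceptor, shown in capitals with the first 12 bases of the shorter exon in lower case. The Celf1 extension lies at the start of chr2:91009202-91009216 (plus strand). The Celf2 extension lies in chr2:6553953-6553982 (minus strand) and that of Rbfox2 in chr15:77098061-77098084 (minus strand). All 3 extensions are coding in the matched transcript and multiples of 3 bases long.
Celf1, 3-base extension: CAGggtcttcaccga
Celf2, 18-base extension: TTGCTCAAATGCTCTCAGgtatggcggctc
Rbfox2, 12-base extension: GTCTCCCTTTAGttcctggcttcc

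Rbfox1 and Rbfox2 each carry a pair of neighbouring exons of 40 and 43 bases. These are shown whole, because the inclusion of the shorter exon differed between groups in the deposited table for Rbfox1. Both lengths leave a remainder of 1 base after division by 3, so exchanging one for the other keeps the reading frame. The 40-base exons of the 2 genes shared 34 of 40 bases (85%), and the 43-base exons shared 27 of 43 (62.8%).
Rbfox1, 40-base exon, chr16:7363865-7363904, plus strand: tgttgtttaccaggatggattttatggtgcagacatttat
Rbfox2, 40-base exon, chr15:77094451-77094490, minus strand: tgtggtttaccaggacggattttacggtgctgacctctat
Rbfox1, 43-base exon, chr16:7369801-7369843, plus strand: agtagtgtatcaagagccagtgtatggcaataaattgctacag
Rbfox2, 43-base exon, chr15:77091812-77091854, minus strand: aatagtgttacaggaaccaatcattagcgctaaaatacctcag

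Mbnl1 and Mbnl2 each have an alternative exon of 95 bases, with 81 of 95 bases identical (85.3%), shown because its level separates the 2 paralogs in every group. In Ptbp1 the 34-base exon is shown because its skipping is known to send the transcript to nonsense-mediated decay.
Mbnl1, 95-base exon, chr3:60622146-60622240, plus strand: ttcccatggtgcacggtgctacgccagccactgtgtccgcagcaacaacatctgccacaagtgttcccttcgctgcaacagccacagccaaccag
Mbnl2, 95-base exon, chr14:120404638-120404732, plus strand: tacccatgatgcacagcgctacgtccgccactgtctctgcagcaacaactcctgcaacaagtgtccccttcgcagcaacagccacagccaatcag
Ptbp1, 34-base exon, chr10:79862014-79862047, plus strand: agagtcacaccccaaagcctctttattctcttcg

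All 10 genes were expressed in all 16 libraries. Levels of different genes were set side by side in CPM per kilobase of counted exon. The counted length, 3491 bases for Rbm24 and 25884 for Celf2, need not be that of the transcripts expressed. The order of genes depends on it: in CPM, Celf2 was above Celf1 in WT Ctr (means 84.6 and 70.5). On the scale per kilobase, Rbm24 and Rbm20 led with means of 35.8 ± 5.56 and 34.2 ± 6.87 (SD over 16 libraries). Rbm24 was the higher of the 2 in 6 of 16 libraries, so their order did not hold within libraries. Qk followed at 16.7 ± 2.83, below Rbm20 in all 16 libraries and above Rbfox2 (median 8.99) in all 16. Ptbp1 (7.91 ± 0.526), Celf1 (7.26 ± 1.33), Mbnl1 (7.16 ± 0.502) and Mbnl2 (6.33 ± 0.909) formed a group with overlapping ranges. Celf2 (3.62 ± 0.459) and Rbfox1 (3.09 ± 1.33) were lowest, and Celf2 exceeded Rbfox1 in 9 of 16 libraries. Their order on this scale differed by genotype. Mean Rbfox1 and Celf2 levels were 4.21 and 3.27 in WT Ctr, and 4.13 and 3.26 in WT Tnpo3. The same means were 1.85 and 4.02 in P635L Ctr, and 2.17 and 3.92 in P635L Tnpo3. In CPM the order did not change, and mean Celf2 was above mean Rbfox1 in every group. Those means were 84.6 and 18.5 in WT Ctr, and 104 and 8.14 in P635L Ctr.

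**Figure D1:**
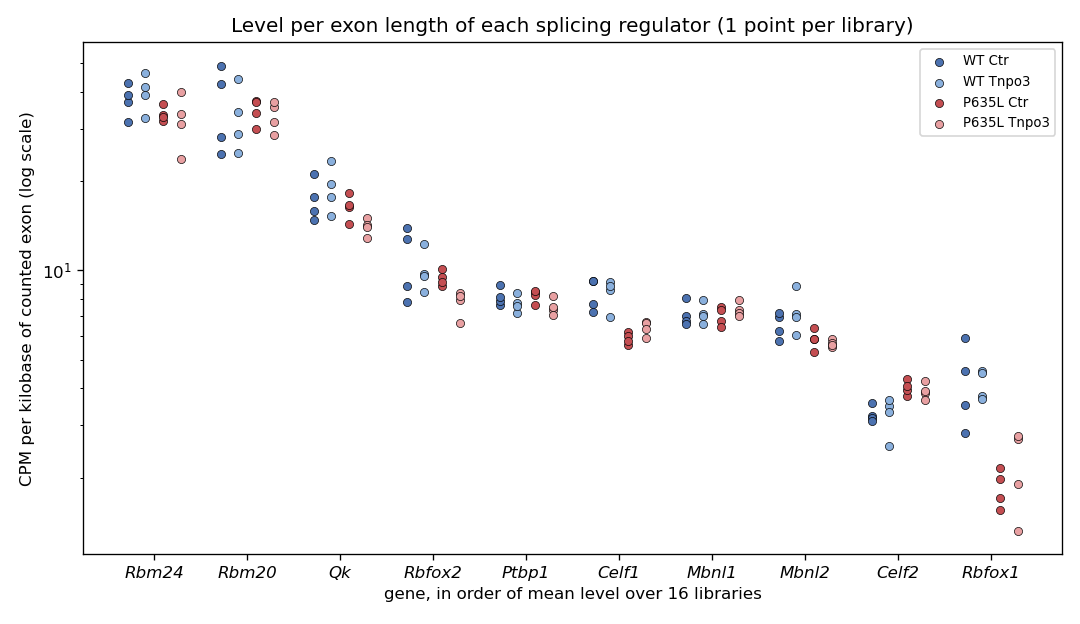
Level of the 10 splicing regulators in CPM per kilobase of counted exon, on a log axis, 1 point for each of 16 libraries, coloured by group. Rbm24 and Rbm20 lead at means of 35.8 and 34.2. Rbfox1 has the lowest mean over all libraries (3.09) and lower points in both P635L groups. In both wild-type groups its mean is above that of Celf2 on this scale, but not in CPM.

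In mutant hearts with control virus, 2 of the 10 regulators were lower than in wild type and none was higher at an adjusted p under 0.05 over all genes tested. They were Rbfox1, at 0.439 times the wild-type level, and Celf1, at 0.707 times. Of all 18662 genes tested, 14.2% passed this threshold, 7.07% higher and 7.14% lower, in edgeR's quasi-likelihood test with Benjamini-Hochberg adjustment. The 10 members had a median log2 fold change of -0.12, and all genes tested had one of -0.05. The members' median absolute log2 fold change was 0.16 and that of all genes 0.28.

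Rbm20 mRNA did not pass the test in any contrast. The gene lies at chr19:53665737-53855511 in GRCm39. WT Ctr libraries held 167, 191, 288 and 333 CPM, WT Tnpo3 libraries 169, 196, 233 and 299, P635L Ctr libraries 231, 254, 251 and 204, and P635L Tnpo3 libraries 241, 215, 251 and 195. All mutant values fell inside the range of the wild-type values. The spread was wider in wild type, with a SD of 78.5 CPM around a mean of 245 in WT Ctr, against 23.0 around 235 in P635L Ctr (n = 4 each). P635L Ctr against WT Ctr gave a log2 fold change of -0.06 with a 95% interval of -0.49 to 0.37 (edgeR adjusted p = 0.878). P635L Tnpo3 against P635L Ctr gave -0.06 as well (-0.49 to 0.37, adjusted p = 0.918). Leaving out each library in turn gave -0.20 to 0.12 for the first value. It was above 0 without WT Ctr replicate 3 (0.03) or 4 (0.12) and at 0 without P635L Ctr replicate 4.

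Splicing of Rbm20 itself could not be tested, because no listed event had enough reads for both forms (a mean of 10 junction reads per library in both groups, and 10 inclusion and 10 skipping reads in all). The exon at 53838533-53838619 (87 bases) had mean depths of 343 to 579 reads, with inclusion levels of 0.986 to 1 in WT Ctr and 0.996 to 1 in P635L Ctr. A 46-base exon at 53840785-53840830 was nearly always skipped, with inclusion of 0 to 0.007 in WT Ctr and 0 to 0.008 in P635L Ctr. The 132-base exon at 53841935-53842066, listed in 1 table, stood at 1 in all WT Ctr libraries and at 0.985 to 1 in P635L Tnpo3. An exon of 122 bases at 53847823-53847944 stood at 1 in all WT Ctr libraries and at 0.998 to 1 in P635L Ctr. Rbm20 exons with over 90 mean reads were thus joined or skipped almost uniformly in the groups listed.

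Rbfox1, the muscle and neuronal RBFOX paralog (chr16:5703219-7229390), was the member with the largest fold change in each contrast of mutant with wild type. WT Ctr libraries held 12.4, 20.1, 15.5 and 26.0 CPM and WT Tnpo3 libraries 20.2, 16.6, 16.2 and 19.8. P635L Ctr libraries held 7.53, 6.86, 9.49 and 8.68 CPM and P635L Tnpo3 libraries 11.9, 8.39, 12.1 and 5.82. No mutant library reached the lowest wild-type library. The share of all genes with the genotypes apart in this way was not counted. The log2 fold change of P635L Ctr against WT Ctr was -1.19 ± 0.23 (SE, edgeR adjusted p = 0.00171). The authors' deposited table gives -1.17 with an adjusted p of 5.21e-06 for the same pair. Without the 3 libraries rich in 1 gene, which left 2 WT Ctr libraries in the fit, it was -0.75 (edgeR adjusted p = 0.0512). The call held in the other 23 of 24 alternative settings.

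Rbfox1 was also lower in mutant hearts with Tnpo3 virus. P635L Tnpo3 against WT Tnpo3 gave -0.93 ± 0.23 (SE, edgeR adjusted p = 0.0308), and against WT Ctr -0.96 ± 0.23 (adjusted p = 0.0267). These calls were less stable than the first, failing in 6 and 8 of 24 alternative settings. Leaving out P635L Tnpo3 replicate 2 or 4 ended both. Leaving out WT Tnpo3 replicate 1 or 2 ended the former, and WT Ctr replicate 2 or 4 the latter. Without the 3 libraries rich in 1 gene the contrast with WT Ctr fell to -0.51 (edgeR adjusted p = 0.329), and that with WT Tnpo3 held at -0.89 (0.0189). Between the 2 mutant groups the values overlapped, and the log2 fold change was 0.23 with an interval of -0.26 to 0.72 (edgeR adjusted p = 0.653). The call missed the threshold, which does not show that the 2 mutant groups are alike.

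Celf1, a CELF protein that is high in fetal and low in adult heart muscle (chr2:90770727-90849842), differed between the genotypes in the same direction with a smaller change. WT Ctr libraries held 61.1, 77.8, 65.1 and 77.8 CPM and WT Tnpo3 libraries 72.5, 77.1, 58.8 and 74.8. P635L Ctr libraries held 47.4, 52.5, 50.7 and 48.7 CPM and P635L Tnpo3 libraries 56.7, 56.0, 49.8 and 53.7. All 8 mutant libraries lay below all 8 wild-type libraries, a separation whose share over all genes was not counted. P635L Ctr against WT Ctr gave -0.50 ± 0.11 (SE, edgeR adjusted p = 0.00435), and the authors' deposited table gives -0.49 with an adjusted p of 0.000645. Without the 3 libraries rich in 1 gene the value was -0.30 (edgeR adjusted p = 0.0926), and the call held in the other 23 alternatives. With Tnpo3 virus the difference from WT Ctr was -0.38 (adjusted p = 0.065) and from WT Tnpo3 -0.39 (adjusted p = 0.0532), which missed the threshold. Without the same 3 libraries these values were -0.19 (adjusted p = 0.484) and -0.36 (adjusted p = 0.0351). P635L Tnpo3 against P635L Ctr gave 0.12 (interval -0.12 to 0.35, adjusted p = 0.629).

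Celf2, the paralog of Celf1 on the same chromosome (chr2:6544505-7514374, minus strand), lay on the opposite side. WT Ctr libraries held 92.2, 83.7, 82.1 and 80.3 CPM and WT Tnpo3 libraries 90.3, 66.2, 86.4 and 94.2. P635L Ctr libraries held 97.4, 111, 102 and 105 CPM and P635L Tnpo3 libraries 99.8, 110, 94.8 and 102. Every mutant library was above every wild-type library, the closest being 94.8 in P635L Tnpo3 and 94.2 in WT Tnpo3. How many of all genes separate in this way was not counted. The log2 fold change of 0.30 ± 0.11 (SE) in P635L Ctr against WT Ctr missed the threshold in edgeR (adjusted p = 0.0767) and passed it in 4 of 24 alternatives. It was 0.29 without the 3 libraries rich in 1 gene (edgeR adjusted p = 0.141). In the authors' deposited table Celf2 has 0.31 with an adjusted p of 0.00998, and for P635L Tnpo3 against WT Ctr 0.29 with an adjusted p of 0.0432. Celf1 and Celf2 thus differed in sign between the genotypes, and their levels over the 16 libraries had a Pearson r of -0.736, a description over libraries that share 2 genotypes.

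**Figure D2:**
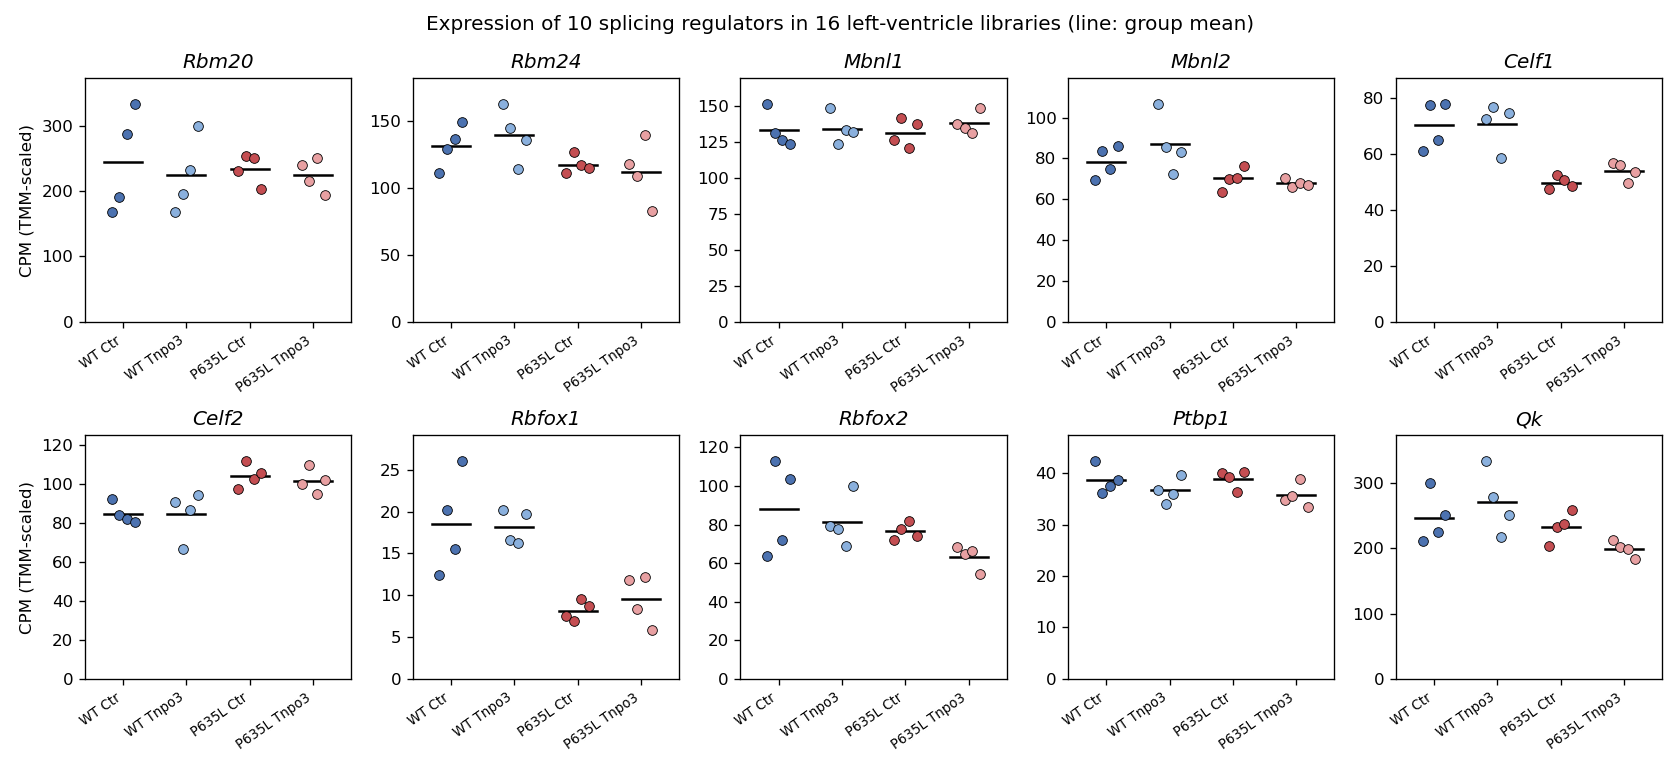
CPM of each regulator in every library, 4 points per group with a line at the group mean, each axis starting at 0. Rbfox1 and Celf1 points of both P635L groups lie below all wild-type points, Celf2 points lie above them, and Rbm20 points of the mutants sit inside the wild-type range.

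Rbm24, Mbnl1, Mbnl2, Rbfox2, Ptbp1 and Qk did not pass the test in any contrast. Mbnl1 lay between 120 and 151 CPM over all libraries, and P635L Ctr against WT Ctr gave -0.02 (interval -0.23 to 0.20). Ptbp1 ranged from 33.5 to 42.3 CPM, with a value of 0.01 (interval -0.19 to 0.21). Part of the Ptbp1 exons is shared with 3 genes on the other strand, of which the most counted was Plppr3, so reads of these genes may not be separated. Mbnl2 shares exon bases with Gm26679 (mean 5.6 counts) in the same way. Rbm24 ranged from 82.6 to 162 CPM, with a value of -0.16 (interval -0.48 to 0.15).

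Rbfox2 and Qk had their lowest group mean in mutants with Tnpo3 virus, and so did Rbm24 (112 CPM), Mbnl2 (67.9) and Ptbp1 (35.7). P635L Ctr against WT Ctr gave -0.20 for Rbfox2, and 0.21 without the 3 libraries rich in 1 gene, neither past the threshold. For Rbfox2, WT Ctr libraries spread from 63.4 to 113 CPM, P635L Ctr libraries held 72.2, 77.5, 82.0 and 74.2, and P635L Tnpo3 libraries 68.1, 64.5, 66.5 and 54.2. The 2 mutant groups did not overlap, with a log2 fold change of -0.27 (two-sided exact permutation p = 0.0286, the smallest that 4 against 4 allows), but the edgeR adjusted p was 0.389. The share of all genes whose groups did not overlap was not counted. For Qk, P635L Tnpo3 libraries held 183 to 213 CPM and WT Tnpo3 libraries 218 to 334, again without overlap (-0.44, edgeR adjusted p = 0.0771). Mbnl2 gave -0.36 in that contrast (adjusted p = 0.0876), and its 4 P635L Tnpo3 libraries lay between 66.2 and 70.2 CPM, below the WT Tnpo3 range of 72.5 to 106. Without the 3 libraries rich in 1 gene, Celf1 (adjusted p = 0.0351), Qk (0.0298) and Mbnl2 (0.0491) joined Rbfox1 below the threshold in P635L Tnpo3 against WT Tnpo3.

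Tnpo3 virus changed none of the 10 members within a genotype at the threshold. In the mutants 0 of 10 passed, and 3.88% of all genes did (1.63% higher, 2.25% lower). In wild type 0 of 10 passed beside 0.00536% of all genes, which is 1 gene. At an unadjusted p under 0.05 the count was also 0 in both, beside 3426 of all 18662 genes in the mutants and 597 in wild type. DESeq2 called 0 members in both, and its share over all genes is not given here. P635L Tnpo3 against WT Ctr had 1 member called (Rbfox1, lower) beside 3.07% of genes (1.49% higher, 1.58% lower), and P635L Tnpo3 against WT Tnpo3 also 1 (Rbfox1, lower) beside 3.72% (1.72% higher, 2% lower). At an unadjusted p under 0.05, these 2 contrasts held 5 and 7 of the 10 members, and 3416 and 3758 of all 18662 genes. The comparisons share groups of libraries and are not independent of each other. The interaction of virus and genotype called 0 members, with 0.504% of genes called (0.295% higher, 0.209% lower). At an unadjusted p under 0.05 it held 0 members, beside 2321 of all 18662 genes. DESeq2 called 0 there as well.

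**Figure D3:**
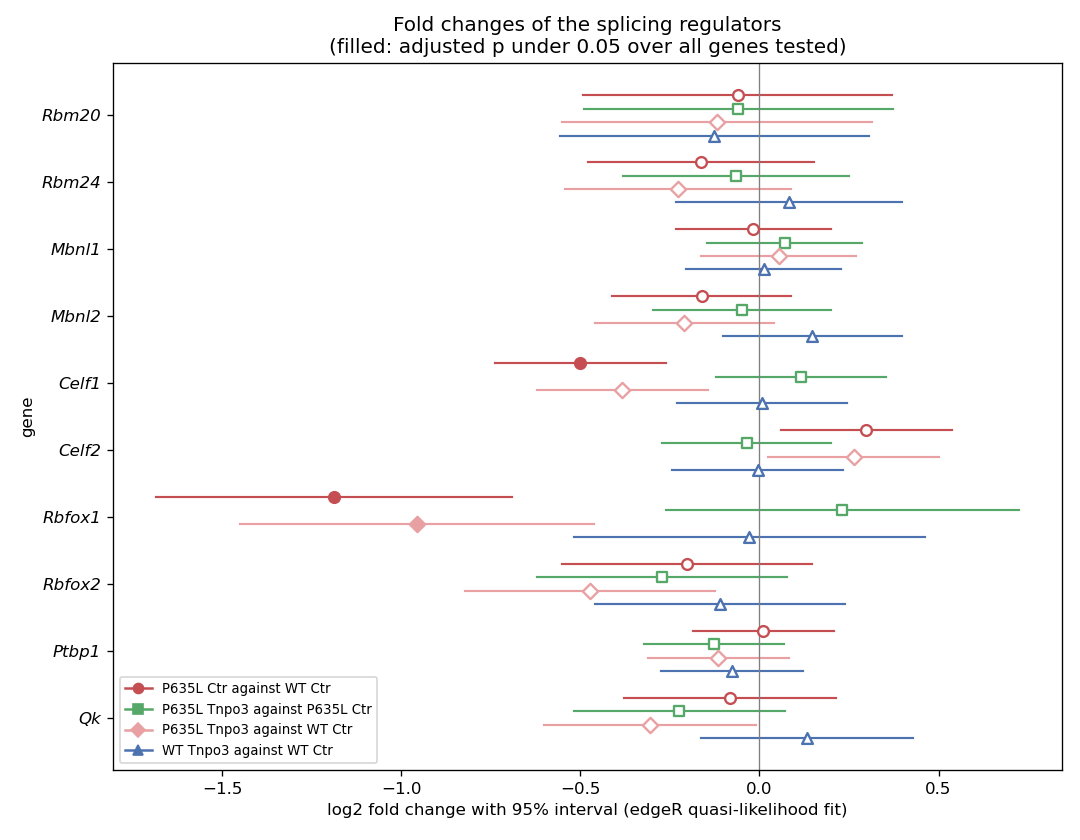
Log2 fold change of each regulator with its 95% interval in 4 contrasts, filled symbols marking an adjusted p under 0.05 over all genes tested. Rbfox1 at -1.19 and -0.96 and Celf1 at -0.50 are the filled symbols, and the intervals for Tnpo3 virus within a genotype cross 0 for all 10 genes.

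Markers of cell types moved with the genotype beside these results. The summed level of 7 cardiomyocyte markers was 75792 to 93001 CPM in WT Ctr and 67894 to 87126 in WT Tnpo3, against 53678 to 58009 in P635L Ctr and 58896 to 68750 in P635L Tnpo3. Of the 7, 4 were lower in P635L Ctr than in WT Ctr and none higher, with a median log2 fold change of -0.61. In P635L Tnpo3 against P635L Ctr, 1 of the 7 was higher (median 0.11). Of all genes tested, 14.2% were called in the first contrast (7.07% higher, 7.14% lower) and 3.88% in the second (1.63% higher, 2.25% lower). Of 5 fibroblast markers, 5 were higher (median 0.87), with sums of 1067 to 1566 CPM in P635L Ctr and 625 to 907 in WT Ctr, and 4 of 5 were lower again in P635L Tnpo3 than in P635L Ctr. Of 5 skeletal muscle markers 2 were tested, and 1 was higher in P635L Ctr than in WT Ctr and 1 lower in P635L Tnpo3 than in P635L Ctr. Their sums were 1.20 to 1.91 CPM in WT Ctr, 0.810 to 1.45 in WT Tnpo3, 9.85 to 12.9 in P635L Ctr and 2.67 to 6.34 in P635L Tnpo3. Of 5 macrophage markers 1 was lower in P635L Ctr (median -0.79), with sums of 138 to 424 CPM in WT Ctr and 119 to 159 in P635L Ctr. The lists for atrial, endothelial, smooth muscle, lymphoid, nerve, fat and red blood cells had no called marker in either contrast. The part of these shifts in the Rbfox1, Celf1 and Celf2 values was not tested. In a bulk library, fewer cells of a type and less RNA per cell cannot be told apart.

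Among the genes whose level followed a member over the 16 libraries, those most like Rbfox1 were Abcc9 (Pearson r 0.968), Hdlbp (0.952) and Adra1a (0.95), out of 12489 genes. Those most like Celf1 were Ntn1 (0.949), Slc7a1 (0.935) and Cpox (0.93). Rbm20 was followed by 4930506C21Rik (0.92), Mga (0.91) and Mas1 (0.899). Within the members, Mbnl2 and Qk had the highest r (0.909) and Celf1 and Rbfox1 the next (0.856). These values describe libraries that share genotype and depth.

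A list of 34 further RNA-binding proteins of the same families and of muscle and neuronal splicing was read in the same way, and 28 of them were tested. In P635L Ctr against WT Ctr, 1 of the 28 was higher and 2 were lower, beside 14.2% of all genes tested (7.07% higher, 7.14% lower). Srrm4, which promotes neuronal microexons, stood at 13.5 to 23.1 CPM in WT Ctr and 4.79 to 9.15 in P635L Ctr (log2 fold change -1.40, edgeR adjusted p = 0.000693). Khdrbs3, a STAR-family protein related to QKI, stood at 55.9 to 77.5 CPM in WT Ctr and 35.5 to 39.7 in P635L Ctr (-0.91, adjusted p = 0.000406). Both calls held in all 24 alternatives. Srrm4 shares exon bases with Srrm4os on the other strand (mean 12.6 counts). Matr3, a nuclear matrix protein that represses exons, stood at 42.6 to 55.7 against 55.4 to 64.0 CPM (0.31, adjusted p = 0.0368). The 2 ranges overlapped, and the call was lost in 10 of 24, among them without WT Ctr replicate 1 or 2, without P635L Ctr replicate 1, 2 or 3, or without P635L Tnpo3 replicate 1.

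With Tnpo3 virus, Srrm4 was the 1 gene of this list called in P635L Tnpo3 against WT Ctr (-1.09, edgeR adjusted p = 0.0165). That call was lost in 4 of 24 alternatives, including without WT Ctr replicate 2 and without P635L Tnpo3 replicate 1 or 3. Nova1, a neuronal splicing factor, was the 1 gene called in P635L Tnpo3 against WT Tnpo3 (0.78, adjusted p = 0.0326), with 3.80 to 7.13 CPM in WT Tnpo3 and 7.25 to 12.2 in P635L Tnpo3. It was lost in 7 of 24, including without WT Tnpo3 replicate 1, 2 or 4 and without P635L Tnpo3 replicate 3 or 4. None of the 28 was called between the mutant groups, between the wild-type groups or in the interaction. Of all genes tested, 3.07% were called in P635L Tnpo3 against WT Ctr and 3.72% in P635L Tnpo3 against WT Tnpo3. The shares were 3.88% between the mutant groups, 0.00536% between the wild-type groups and 0.504% in the interaction.

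Of 25 listed RBM20 targets, a list chosen with earlier results of these data known, 24 had a testable event. In P635L Ctr against WT Ctr, 6 had a called event (Camk2d, Ldb3, Pdlim5, Ryr2, Trdn and Ttn), beside 0.375% of all genes with a testable event. The number of events per gene was not taken into account. In P635L Tnpo3 against P635L Ctr, Ldb3 and Ttn had a called event, beside 0.0638%. The count was 0 in P635L Tnpo3 against WT Ctr, beside 0.0679%, and 0 in WT Tnpo3 against WT Ctr, beside 0%.

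No event in a transcript of the 10 members passed the same test. An event was called at an edgeR adjusted p under 0.05 and a difference in inclusion level of at least 0.1 (inclusion level is the share of transcripts with the segment, from junction reads, 0 to 1). In P635L Ctr against WT Ctr, 40 of the 84 member events had enough reads and 0 were called, beside 0.222% of 18016 events. In P635L Tnpo3 against P635L Ctr 0 of 45 were called, beside 0.0332% of 18059. In P635L Tnpo3 against WT Ctr 0 of 40 were called, beside 0.041%, and in WT Tnpo3 against WT Ctr 0 of 36, beside 0%. At an unadjusted p under 0.05 the member counts in these comparisons were 1, 3, 1 and 0. Over all events, the same cut took 1484 of 18016, 1404 of 18059, 1269 of 17083 and 587 of 15715.

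The members' events had larger differences and fewer reads than events at large. Their median absolute difference was 0.071 in P635L Ctr against WT Ctr, against 0.024 for all events tested, with a median of 48.7 reads per library against 122. In the other 3 comparisons the medians were 0.068 against 0.023, 0.048 against 0.025 and 0.035 against 0.023. The part of the lower depth in these larger medians was not tested.

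The authors' deposited table holds rMATS FDR values, which come from the rMATS model and called more events. Among events with enough reads, at an rMATS FDR under 0.05 with the same difference, 3 member events passed in P635L Ctr against WT Ctr (beside 4.67% of events tested), 2 in P635L Tnpo3 against WT Ctr (beside 4.08%) and 0 in WT Tnpo3 against WT Ctr (beside 1.76%). These shares of members, 3 of 40 and 2 of 40, are close to the background. The 5 are described below with other events of the same genes. They fall outside the rule for naming events and were chosen after their values were seen. The share of all events tested whose groups did not overlap was not counted. An exact permutation p of 0.0286 is the smallest that 4 against 4 allows. The tables do not say which position in a row belongs to which mouse, so values are given in the listed order.

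The 18-base extension of Celf2 (6558776-6558793 in GRCm39) had the largest difference of these. Inclusion was 0.518, 0.223, 0.848 and 0.392 in WT Ctr and 0.139, 0.139, 0.153 and 0.048 in P635L Ctr. The 2 groups did not overlap (difference -0.38, exact permutation p = 0.0286, 0.00614 as rMATS FDR in the authors' deposited table, edgeR adjusted p = 0.493). P635L Tnpo3 libraries held 0.407, 0.301, 0.525 and 0.177, all above P635L Ctr (0.23, exact permutation p = 0.0286, edgeR adjusted p = 0.61). The comparisons share the P635L Ctr libraries. Depth was low, with mean junction reads of 10.8 in WT Ctr, 24.5 in P635L Ctr and 12.0 in P635L Tnpo3. WT Tnpo3 held 0.223, 0, 0 and 0.563 at a mean of 6.25 reads, too few for the edgeR test. Its mean was also below WT Ctr (difference -0.30, exact permutation p = 0.2), and the authors' deposited table gives an rMATS FDR of 0.0159 for that pair as well.

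Celf1 had 3 overlapping events and a shorter one upstream. Retention of 3163 bases (90843748-90846910) stood at 0.173, 0.086, 0.245 and 0.241 in WT Ctr and at 0.260, 0.261, 0.438 and 0.395 in P635L Ctr. The groups did not overlap (difference 0.15, exact permutation p = 0.0286, 0.0116 as rMATS FDR in the authors' deposited table, edgeR adjusted p = 0.624). P635L Tnpo3 libraries held 0.241, 0.083, 0.240 and 0.246, all below P635L Ctr (-0.14, exact permutation p = 0.0286, edgeR adjusted p = 0.72), and WT Tnpo3 libraries 0.048, 0.108, 0.309 and 0.340. An acceptor extension of 3075 bases (90843836-90846910) that shares the skipping reads of this event had a like difference (0.14, 0.0211 as rMATS FDR in the authors' deposited table, edgeR adjusted p = 0.646), so the 2 are not separate evidence.

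The 88-base intron of Celf1 at 90843748-90843835 was retained in most reads. Inclusion was 0.588, 0.542, 0.546 and 0.486 in P635L Ctr and 0.743, 1, 0.904 and 1 in P635L Tnpo3. The mutant groups did not overlap (difference 0.37, exact permutation p = 0.0286, edgeR adjusted p = 0.576), at mean depths of 29.5 and 15.5 reads. WT Ctr values of 0.833, 0.625, 0.769 and 0.471 lay across both. For the 3-base extension at 90839547-90839549, P635L Ctr libraries held 0.196, 0.101, 0.163 and 0.070. WT Ctr libraries held 0.226, 0.661, 0.218 and 0.210, all above them (-0.20, exact permutation p = 0.0286, edgeR adjusted p = 0.719). P635L Tnpo3 libraries held 0.233, 0.347, 0.401 and 0.394, also all above them (0.21, exact permutation p = 0.0286, edgeR adjusted p = 0.653).

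The 40-base exon of Rbfox1 (7181729-7181768) was mostly skipped. Inclusion was 0, 0.155, 0.204 and 0.058 in WT Ctr, 0.115, 0.087, 0 and 0 in WT Tnpo3, 0.109, 0.524, 0 and 0.211 in P635L Ctr, and 0.550, 0.268, 0.196 and 0.423 in P635L Tnpo3. P635L Tnpo3 against WT Ctr gave 0.26 (exact permutation p = 0.0571, 0.0363 as rMATS FDR in the authors' deposited table, edgeR adjusted p = 0.681). Mean depth was 13.5 to 18.5 reads. The neighbouring 43-base exon was included at a mean of 0.967 ± 0.0457 (SD, n = 4) in WT Ctr and 0.836 ± 0.329 in P635L Ctr, with edgeR adjusted p = 0.867.

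In Rbfox2 the 12-base extension (76982273-76982284) had mean depths of 53.8 to 84.5 reads. Inclusion was 0.520, 0.533, 0.575 and 0.643 in WT Ctr and 0.363, 0.383, 0.463 and 0.301 in P635L Tnpo3, without overlap (-0.19, exact permutation p = 0.0286, 0.00407 as rMATS FDR in the authors' deposited table, edgeR adjusted p = 0.649). WT Tnpo3 (0.579, 0.537, 0.345 and 0.357) and P635L Ctr (0.460, 0.471, 0.563 and 0.456) had means between those of these groups and overlapped with them. The 40-base exon of Rbfox2, in the event with the most reads, stood at 0 to 0.297 in WT Ctr, 0.050 to 0.208 in WT Tnpo3, 0.128 to 0.170 in P635L Ctr and 0 to 0.268 in P635L Tnpo3, and all groups overlapped (edgeR adjusted p = 0.962 for P635L Ctr against WT Ctr). A shallower event of the same exon with another neighbouring exon had the largest difference of the 40 member events tested in that comparison, -0.43 (edgeR adjusted p = 0.66).

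**Figure D4:**
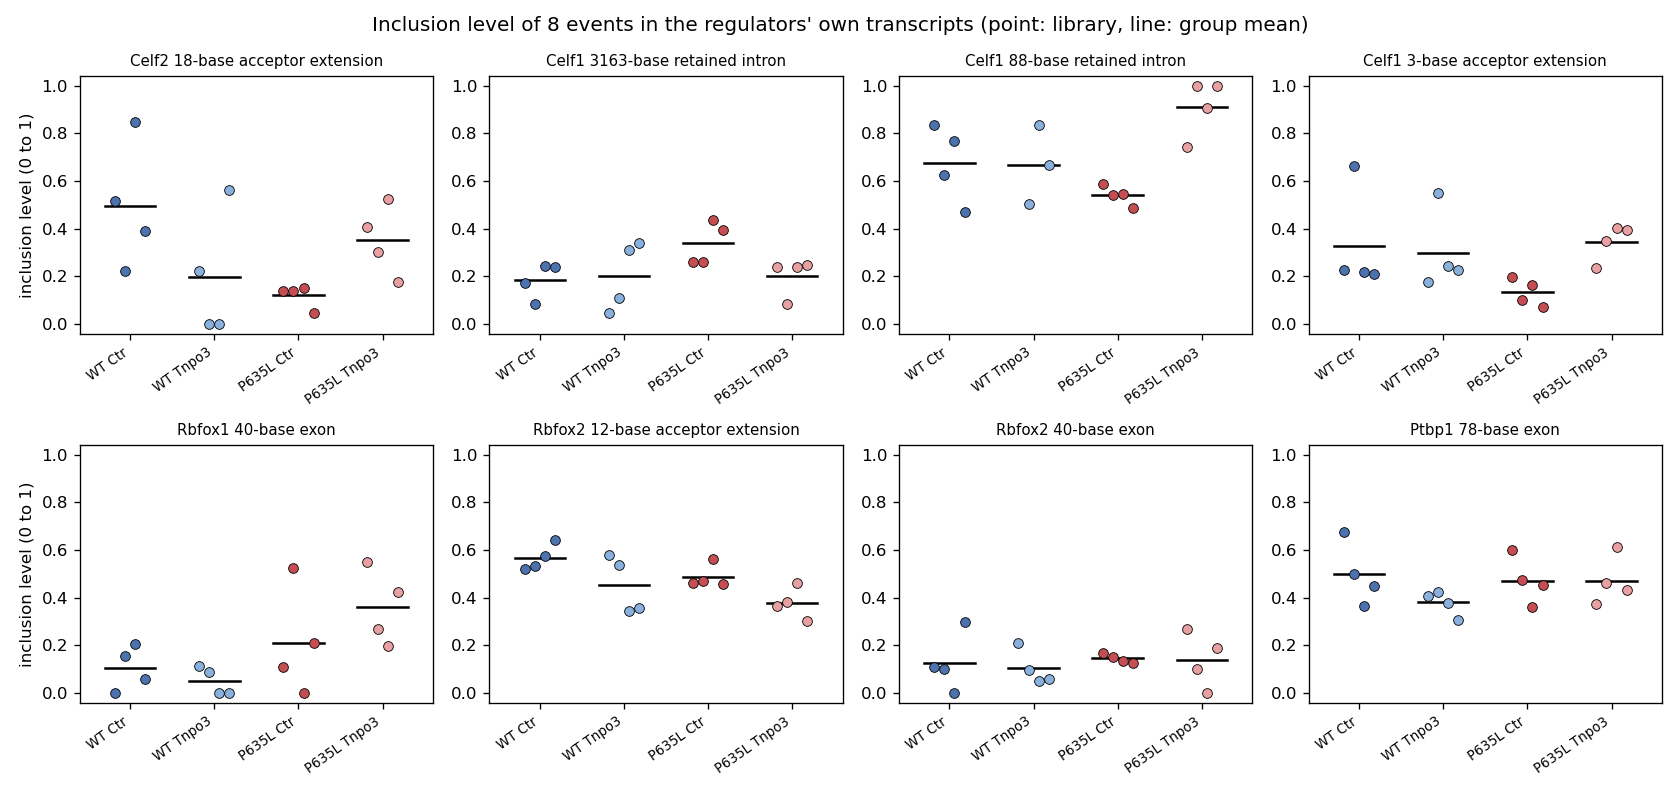
Inclusion level (0 to 1) of 8 events in transcripts of Celf2, Celf1, Rbfox1, Rbfox2 and Ptbp1, 1 point per library and a line at each group mean. The P635L Ctr points of the Celf2 18-base extension (0.048 to 0.153) lie below all WT Ctr points, and the Ptbp1 78-base exon shows overlapping groups.

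The remaining members kept overlapping groups. The 95-base exon was included at a mean of 0.764 ± 0.269 (SD, n = 4) in WT Ctr and 0.828 ± 0.116 in P635L Ctr for Mbnl1. For Mbnl2 the same means were 0.178 ± 0.0437 and 0.293 ± 0.125. In each group the lowest Mbnl1 library lay above the highest Mbnl2 library. The Ptbp1 34-base exon was included at 0.851 ± 0.0830 in WT Ctr and 0.793 ± 0.110 in P635L Ctr. The Ptbp1 78-base exon (79695951-79696028), whose inclusion is known to alter the repressor's strength, stood at 0.497 ± 0.132 and 0.471 ± 0.0980. The 113-base exon of Rbm24 (46575752-46575864) stood at 0.298 ± 0.194 in WT Ctr, 0.239 ± 0.0534 in P635L Ctr and 0.437 ± 0.194 in P635L Tnpo3. For Qk, the 1 event with enough reads, an acceptor choice over 761 bases (10432363-10433123), lay at 0.449 ± 0.122 in WT Ctr and 0.476 ± 0.0890 in P635L Ctr.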

How the data were processed

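Left-ventricle RNA was measured in 16 libraries. Per the submitters' processing notes, reads were processed with STAR 2.7.9a, featureCounts 2.0.6 and DESeq2 (version not given) on GRCm39, and the annotation and strand setting are not given in the sources used here. For each gene, the authors' deposited count table gives unnormalized read counts in 16 columns, each mapped to 1 sample. The authors' deposited DESeq2 tables hold log2 fold changes, Wald statistics (a score, not used here) and adjusted p-values, as WT Ctr over the other group, and signs were turned here. The authors' deposited rMATS tables hold junction reads, inclusion levels (a fraction), their differences between groups (a score from WT Ctr minus the other group) and FDR values. Coordinates are given 1-based.

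Genes were tested with edgeR 4.0.16 (R 4.3.3, limma 3.58.1) by the quasi-likelihood test over all 16 libraries with TMM factors, filterByExpr and 12 residual degrees of freedom. P-values were adjusted over all 18662 genes. Events were tested with edgeR on inclusion and skipping reads, where each group averaged 10 or more junction reads and where 10 or more inclusion and 10 or more skipping reads were present over all libraries. Tests on simulated data recovered 83% of 2-fold and 95% of 4-fold gene changes in P635L Ctr against WT Ctr with 3.79% false calls over 18338 to 18395 genes. For events of the same comparison (18016), 11.5% of inclusion differences of 0.2 and 83.5% of those of 0.4 were recovered. In the simulated events the spread between libraries was a set value, not one estimated from these data. All 10 members were named, and events by a call in any comparison, the event with most junction reads standing for its site. For Rbm20 and each member called in P635L Ctr against WT Ctr, the 3 genes most alike in log2 CPM (mean log2 CPM of at least 1) were named. From the related list, called genes were named, at most 6. Members and lists were chosen with earlier results of these data known. Alternatives included DESeq2 1.42.0, other scaling factors, no low-count filter, a replicate block and leaving out libraries. The labels number the mice but do not say that numbers pair them, and p-values measure the spread between these mice.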

Additional observations from a re-analysis of the deposited data

Results flagged for a closer look

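Over 106 sets of 4 libraries, covering the CPM of the members and the inclusion levels of the events described, 7 held a library whose gap to the others took nearly the whole range of its group. For normally distributed values, chance alone marks about 1 in 20 such sets. All 7 were inclusion levels, which are bounded by 0 and 1 and can be tied, so that rate need not hold for them. For the 3-base extension of Celf1 the WT Ctr library in the second listed position stood at 0.661, and the other 3 between 0.210 and 0.226. For the 3163-base retained intron of Celf1 a P635L Tnpo3 library stood at 0.083, and the others between 0.240 and 0.246. For the 18-base extension of Celf2 a P635L Ctr library stood at 0.048, and the others between 0.139 and 0.153.

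The 43-base exon of Rbfox1 stood at 0.711 in 1 WT Tnpo3 library and at 0.343 in 1 P635L Ctr library. The other 3 P635L Ctr libraries were at 1. The 43-base exon of Rbfox2 stood at 0.713 in 1 WT Ctr library, with the other 3 at 1. The 12-base extension of Rbfox2 stood at 0.563 in 1 P635L Ctr library. No CPM of a member was marked, and no member passed the test of the interaction of virus and genotype.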

How the results depend on the processing

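Of 204 recomputed counts of called members or events, 175 stayed within 1.5 times the reported count. Most of the reported counts were 0, and a 0 that stayed 0 is among the 175. That share therefore says little about how stable the calls are where members were called. For P635L Ctr against WT Ctr the count of members, 2, became 0 without the 3 libraries rich in 1 gene and 1 (Rbfox1) when log2 fold changes under 1 in size were left out, and ranged from 2 to 3 when each library was left out in turn. For P635L Tnpo3 against P635L Ctr it rose from 0 to 1 (Rbfox2, adjusted p = 0.0407) with only these groups in the fit. For P635L Tnpo3 against WT Ctr the count of 1 became 0 with the replicate block, without the libraries rich in 1 gene, without the libraries with high Xist, with only the groups compared in the fit and with the fold threshold, became 2 with DESeq2, and ranged from 0 to 3 when each library was left out. For P635L Tnpo3 against WT Tnpo3 the count of 1 became 0 with the replicate block, without the libraries with high Xist and with the fold threshold, 4 without the libraries rich in 1 gene and with DESeq2, and ranged from 0 to 4. Fewer libraries were in the fits that left some out, and the cause of the other changes was not tested. The share of all genes called in each setting is not given here. These changes in member counts therefore cannot be told apart from a change in calls over all genes. By rMATS FDR, the counts of member events of 0 became 3 in P635L Ctr against WT Ctr and 2 in P635L Tnpo3 against WT Ctr. Over all events tested, 4.67% and 4.08% passed in these comparisons. Same-numbered libraries correlated from -0.257 to 0.552 (median -0.0575, against 0.0063 for other numbers). These values gave no sign of pairing but cannot exclude a shared litter or batch. The replicate block left 2 members called in P635L Ctr against WT Ctr. No paired analysis was possible for events because the splicing tables give no mouse numbers. The fold change of Rbm20, called in no setting, changed sign. Without the libraries rich in 1 gene it was 0.08 in P635L Ctr against WT Ctr and 0.02 in P635L Tnpo3 against WT Ctr, and without the libraries with high Xist 0.16 and 0.10. Leaving out 1 library each gave -0.20 to 0.12 and -0.26 to 0.06 in these contrasts, -0.12 to 0 in P635L Tnpo3 against P635L Ctr, -0.30 to 0.06 in WT Tnpo3 against WT Ctr, -0.11 to 0.18 in P635L Tnpo3 against WT Tnpo3 and -0.12 to 0.24 in the interaction. Other scaling factors moved the median of all genes by at most 0.0497 on the log2 scale. For P635L Ctr against WT Ctr, the read minimums left 18016 of 44612 listed events, and 40 of 84 in members, to be tested. The simulated events had the read numbers of all events tested, not those of the members, and the part of depth in their recovery was not tested. Their spread between libraries was also a set value, so the recovered shares may not hold for events with a wider spread.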
